A study of Mus musculus with 8 samples.

Results

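N6-methyladenosine (m6A) is written into nascent RNA mainly by the METTL3-METTL14 complex, which favours a short consensus whose most common form is GGAC, and in messenger RNA the mark is known to gather near stop codons and in 3′ untranslated regions. A peak outside every annotated gene can therefore lie in an unannotated stretch of a known transcript, such as a longer 3′ end or an earlier start, in an unannotated transcript, or in one copy of a repeated sequence to which reads were assigned. MeRIP-Seq isolates RNA fragments with an antibody against m6A and sequences them beside the input RNA, and the peaks are stretches where the immunoprecipitate exceeds its background. The RNA was selected for poly(A) tails before it was fragmented.

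Of 10160 deposited m6A peaks, 10125 lay on placed chromosomes, and 728 of these (7.19%) had their summit in no gene of GENCODE vM1 on mm9. These 728 peaks are described here, beside the 9397 peaks with the summit in a gene. The peaks came from 2 m6A immunoprecipitates and 2 inputs of bone marrow mesenchymal stem cells (MSCs) that the labels call wild type, from C57BL/6 mice. RNA-seq was made from C57BL/6 MSCs of 2 control (wild type in the labels, Mettl3fl/fl in the study's text) and 2 knockout (Prx1-Cre;Mettl3fl/fl) samples, in which Cre is driven by the Prx1 promoter of limb mesenchyme. All 8 samples spent 2 days in osteogenic medium with ascorbic acid at 50 µg/ml, β-glycerophosphate at 5 mM and dexamethasone at 100 nM. The 4 MeRIP-Seq samples gave 1 list with no value per replicate, so the peaks have no replicate error, their sequencing depth is unknown, and differences between classes of peaks were described and not tested. Intervals on shares are 95% Wilson intervals and cover counting error only.

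The RNA-seq libraries held 23948200 to 34069223 counts in named genes. Mettl3 itself, counted over the whole gene, stood at 17.6 and 16.9 CPM (library-size-scaled counts, with TMM factors) in the control libraries and at 17.5 and 16.3 CPM in the knockout libraries, but the deletion removes only part of the gene, so a whole-gene count need not fall and does not check the labels, on which the direction of the comparison rests. The 5 macrophage markers were all above 1 CPM in every library and summed to 3033 and 2918 CPM in control and to 3125 and 3149 CPM in knockout. The 10 markers of mesenchymal stromal cells, 9 of them above 1 CPM in every library, summed to 2871 and 2811 CPM in control and to 2296 and 2322 CPM in knockout. The 3 endothelial markers, 1 of them above 1 CPM in every library, summed to 3.13 and 2.40 CPM in control and to 10.2 and 9.19 CPM in knockout. No marker of the 3 lists was at 0. Mesenchymal sums were thus lower and endothelial sums higher in both knockout libraries, beside every difference between the groups given here. The markers of either list did not move together. Col1a1 (1895 and 1919 CPM in control, 1224 and 1258 in knockout), Cxcl12, Lepr, Eng, Nt5e and Ly6a were lower in knockout. Prrx1, Pdgfra, Pdgfrb and Thy1 were higher. Of the endothelial markers only Kdr rose (2.45 and 1.77 CPM to 9.90 and 8.84), while Pecam1 and Cdh5 fell. The part of these sums in the differences was not tested, and fewer cells of a type cannot be told apart from less RNA per cell. The labels do not say that the libraries came from separate animals, so p-values measure the spread between these libraries only.

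Sequence that occurs more than once in the genome made up most of these peaks. For each summit, all words of 31 bases within 50 bases were counted in the whole mm9 genome, and a peak was called multi-copy where the median word occurred at least 2 times. By this measure 435 of 728 peaks outside genes were multi-copy (59.8%, interval 56.1% to 63.3%), against 674 of 9397 peaks in genes (7.17%). At a median of at least 10 copies the shares were 51.6% outside genes and 1.99% in genes. In 387 peaks outside genes no word near the summit occurred only once. How reads with several matches were assigned is not given in the sources used here, so the pileup of a multi-copy peak cannot be tied to its own locus. Most results below are therefore given for the 293 single-copy and the 435 multi-copy peaks apart. Some pool both, such as fold enrichment at equal pileup and the comparison of knockout with control.

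Many of these peaks shared sequence with each other. Peaks that shared at least 1 word were put into families, and 369 peaks fell into 44 families, of which 12 had at least 10 peaks and held 255 peaks together. All 728 peaks, chained where they lay within 10 kb of each other, formed 472 loci, 356 of which held 1 peak and 37 of which held 4 or more. A dispersed element, a tandem array and a gene cluster are described in turn, and for each recurrent peak a window around a GGAC that most of its copies hold is printed, since these letters show what recurs. All windows are 30 bases of mm9, 5′ to 3′ on the strand given, with GGAC in capitals.

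The largest arrangement was a dispersed element with 7 recurrent peak positions. Families were joined where they met at 5 or more loci, which gave a group of 7 families with 139 peaks, and 129 of these lay at 35 loci on 16 chromosomes that held at least 2 of the families. The element ran forward at 18 loci and in reverse at 17. At the 23 loci with both the first and the last position, the last summit lay a median of 4019 bases after the first (range 2128 to 4103), and the positions between followed at medians of 1046, 1425, 1686, 2446 and 2989 bases. A locus had at most 5 peaks of these families. A window for each position shows the sequence that recurs.
Position 1 (chr11:6655711-6655740, minus strand): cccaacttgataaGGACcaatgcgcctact
Position 2 (chr6:73240403-73240432, minus strand): gatgggaatctcaGGACaattaacctggac
Position 3 (chr1:184191293-184191322, plus strand): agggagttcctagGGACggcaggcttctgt
Position 4 (chr11:86700145-86700174, plus strand): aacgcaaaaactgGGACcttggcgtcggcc
Position 5 (chr5:122647937-122647966, plus strand): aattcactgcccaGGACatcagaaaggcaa
Position 6 (chr10:22459613-22459642, plus strand): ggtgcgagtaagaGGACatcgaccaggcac
Position 7 (chr13:21910897-21910926, plus strand): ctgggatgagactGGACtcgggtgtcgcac

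The window of position 7 was found unchanged in 24 of the 25 peaks at that position and 35 times in the genome, and that of position 5 in all 20 peaks and 47 times in the genome. Position 7 had the highest peaks of the element, with a median pileup of 57 fragments (range 27 to 99) and a median fold enrichment of 12.4. At the other positions the median pileup lay between 15 and 31 and the median fold enrichment was 5.11 at the lowest. Read in the direction from position 1 to position 7, 106 of the 129 peaks (82.2%) had a GGAC within 50 bases of the summit, against 21 (16.3%) on the opposite strand. On the opposite strand no peak at positions 1, 3, 5 and 7 had one, while 14 of 24 peaks at position 6, 4 of 6 at position 4 and 3 of 7 at position 2 did. The printed window was in 17 of 28 peaks at position 1 and 13 of 24 at position 6, so copies differ in places. At positions 2, 3 and 4 it was in 7 of 7, 17 of 19 and 5 of 6. Peaks of a family share sequence, so these 129 peaks are not independent observations of it. The nearest gene ran in the same direction as the element in 66 of 129 peaks, and the distance to it had a median of 14975 bases (range 2310 to 170756). Words of these families also occurred in 65 peaks with the summit in a gene (0.692% of those peaks).

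**Figure D1:**
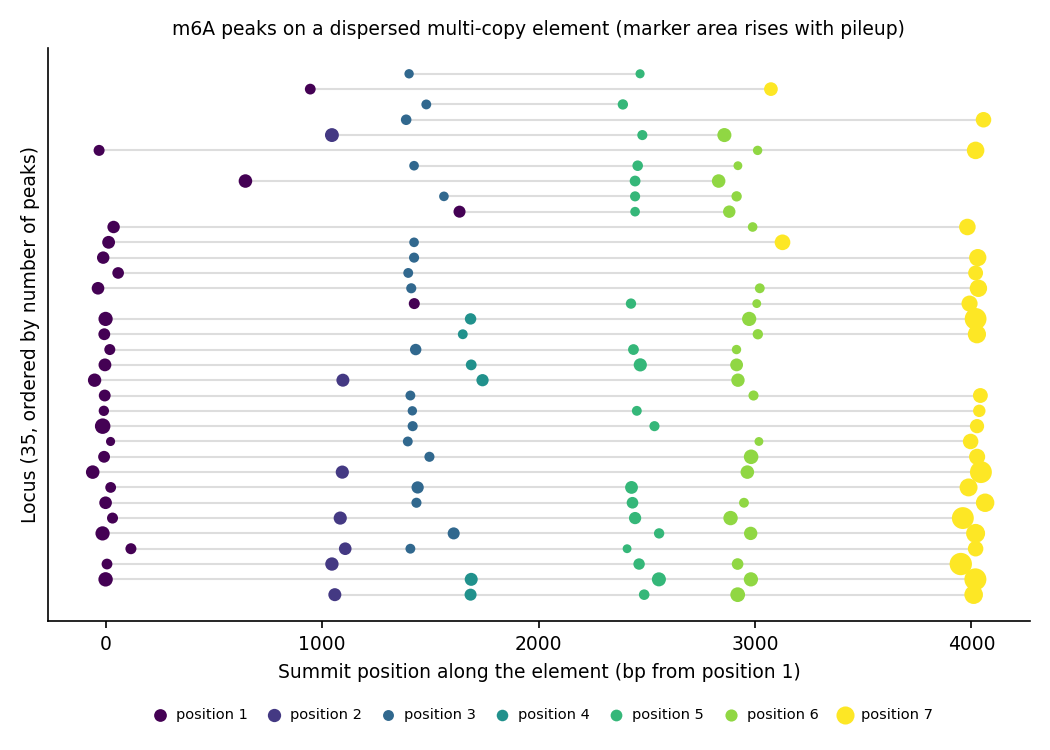
Peaks on the dispersed element at 35 loci, each row being 1 locus turned so that position 1 is on the left, and the horizontal axis giving the summit in bases from position 1. Marker area rises with pileup and colour gives the position. At most loci the peaks fall on the same columns, and the largest markers are at position 7, with pileups of 27 to 99.

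The peaks of this element supplied several of the most enriched members. A peak 170756 bases upstream of Ascc3, which encodes a helicase, had a pileup of 46 and a fold enrichment of 19.3. A peak 4774 bases upstream of SNORA17 reached 16.8 and a peak 29867 bases beyond Gm11977 reached 16.6, both at position 7. The 5 peaks beyond the histone H4 gene Hist1h4m included 4 of the element, at 2812, 3965, 5836 and 6915 bases from its 3′ end, with pileups of 33, 31, 33 and 95. The same 5 peaks lie beyond Hist1h2ao, which lies beside Hist1h4m. The longest peak outside genes, of 1418 bases, was the element's position 2, upstream of Cpeb2, whose product binds cytoplasmic polyadenylation elements, and the third longest outside genes, of 1115 bases, was position 4 beyond Ypel2.

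The second arrangement was a tandem array on chromosome 6. Between Ezh2, the catalytic subunit of the Polycomb complex that methylates histone H3, and Pdia4, a protein disulfide isomerase, lay 37 peaks over 124114 bases (chr6:47601631-47725744), which is 57.8% of the 64 peaks outside genes on that chromosome. Of these, 36 fell into 2 families of 18 peaks each. Within the first family the step from summit to summit had a median of 4341 bases, with 14 of 17 steps between 4000 and 4800 bases, and within the second a median of 4371 bases, again with 14 of 17. The longest steps, of 54502 and 50356 bases, crossed a stretch in the middle of the array without a peak. The first peak of the unit was higher, with a median pileup of 44 (range 24 to 62) and a median fold enrichment of 11.2, and the second had a median pileup of 19 (range 12 to 28) and a median fold enrichment of 7.80. The ranges of pileup overlapped only between 24 and 28.
Array peak 1 (chr6:47708661-47708690, plus strand): aggccctccacttGGACccacacagttccc
Array peak 2 (chr6:47687272-47687301, plus strand): aaaattaggcctgGGACaagttcatgctca

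The first window was in 18 of 18 peaks and occurred 18 times in the genome, and the second was in 18 of 18 peaks and occurred 19 times. Within 50 bases of the summit, GGAC was present on the plus strand in 15 of 18 first peaks and 11 of 18 second peaks. It was on the minus strand in none of the 36. The 18 peaks of each family share sequence, so they are not independent observations of it. No peak in a gene shared a word with the 2 families. The nearest genes in vM1 were small RNA models (Y_RNA models and the microRNA models AC166252.1 and AC166252.2), the nearest of them 328 bases from a first peak of pileup 53 and fold enrichment 18.8. The RefSeq annotation of the later GRCm38.p6 assembly lists 13 genes between Ezh2 and Pdia4. Gm40369, Gm40367, Gm40365, Gm36327, Gm40364 and Gm40363 among them are protein-coding models. The others include the long noncoding RNA Gm40371, Rn4.5s and the Y RNAs Rny1 and Rny3. None of the 13 has its symbol in vM1, but vM1 has models named Y_RNA there, so a missing symbol need not mean a missing gene. No position was carried over from that assembly.

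The third arrangement was a gene cluster on chromosome 2 (chr2:175113790-177772619), where all 39 peaks outside genes lay beyond the 3′ end of their nearest gene. The 17 genes, 16 of them predicted (Gm) genes and the other Etohi1, comprised 9 on the plus and 8 on the minus strand, and the expression table describes Gm4723 as a zinc finger protein. The peaks lay 220 to 10519 bases past the annotated ends (median 2030), with a median pileup of 30 (range 9 to 105). Of the 39 peaks, 28 fell into 3 families, which kept 1 order after the gene wherever a gene had more than 1 of them. From the first to the second the step was 1247 to 1324 bases in 4 genes, and from the first to the third 2250 to 2332 bases in 6 genes. The first family had the highest fold enrichment (median 12.1, against 7.79 for the third).
Cluster peak 1, beyond Gm14436 (chr2:176143899-176143928, plus strand): ccatgttttgggaGGACtgtggaaggactt
Cluster peak 2, beyond Gm4723 (chr2:175211543-175211572, plus strand): ccaccttgaaaatGGACtgaacctctaaac
Cluster peak 3, beyond Gm8898 (chr2:175915454-175915483, minus strand): agaggccaaggaaGGACactggagaaggtg

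In this cluster GGAC near the summit followed the gene's strand. It was present on that strand in 33 of 39 peaks (84.6%, interval 70.3% to 92.8%) and on the other strand in 3 (7.69%). Windows of the same width on both sides of the peak held it on the gene strand in 23.1%. Since 28 of the 39 peaks share sequence within families, they are not independent observations of sequence, and the interval takes no account of this. Gm8923 had 4 peaks, at 352, 909, 1676 and 2670 bases past its end, with pileups of 64, 105, 23 and 42, and Gm14436 had 5, at 2269 to 5008 bases, with pileups of 15 to 104. Gm4723 had 4 peaks at 688 to 3434 bases, the first with a fold enrichment of 17.3, and the peak 220 bases past Gm8898 reached 17.7. Of the 17 genes, 11 were in the expression table, where the control levels of Gm8898 were 10.5 and 8.45 CPM and those of Gm4723 5.38 and 4.24 CPM. Genes of such a family share reads, so these levels are uncertain. Another 11 peaks in the same span had their summit in a gene.

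**Figure D2:**
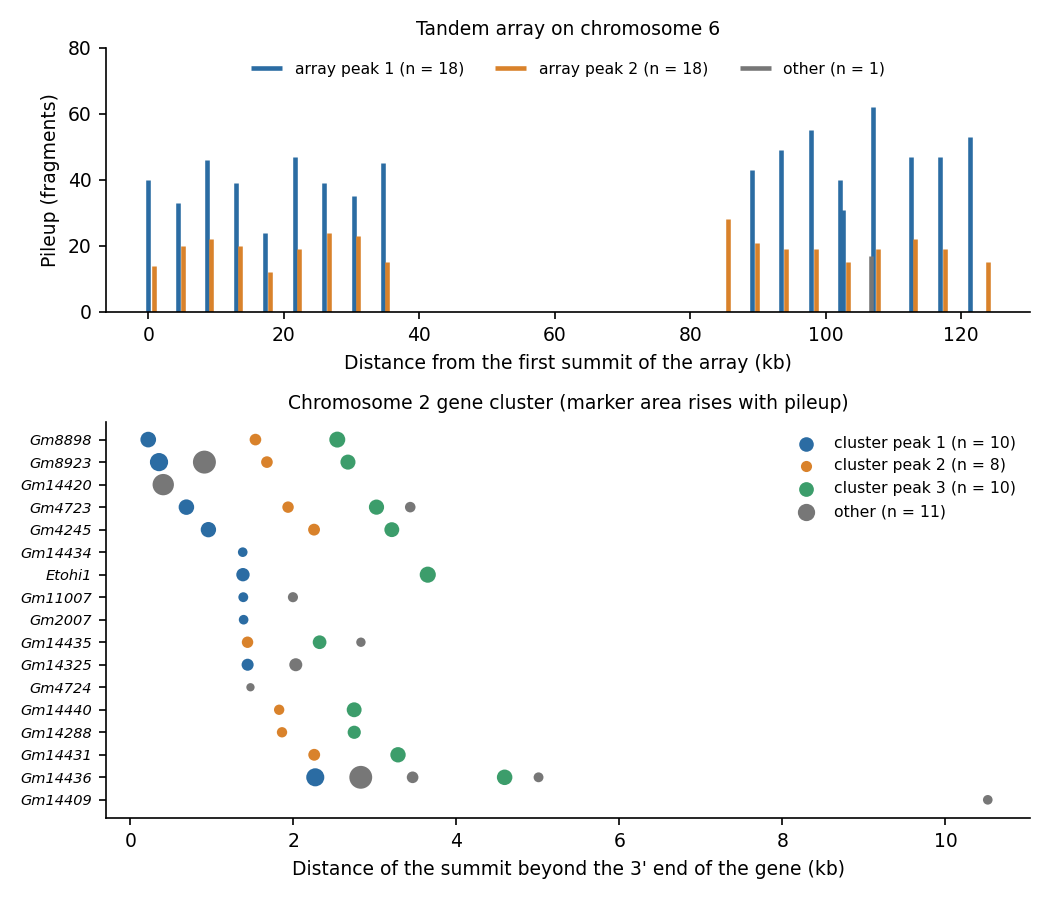
Above, the 37 peaks of the chromosome 6 array, as pileup against distance in kb from the first summit. Below, the 39 peaks of the chromosome 2 cluster, each row being 1 gene and the horizontal axis giving the distance of the summit past its 3′ end in kb, with marker area rising with pileup. On both sides of a stretch without peaks, most units of the array show a first peak of 24 to 62 beside a second of 12 to 28, and in the cluster the 3 families keep their order in each gene that has more than 1 of them.

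The 293 single-copy peaks gathered close to genes. Their summits lay a median of 835 bases from the nearest gene edge (quartiles 261 and 4818), against 14098 bases (quartiles 5801 and 35740) for the multi-copy peaks, and over all 728 peaks the median was 6670 bases. Within 1 kb of a gene lay 160 single-copy peaks (54.6%) and 29 multi-copy peaks (6.67%), and beyond 10 kb 39 (13.3%) and 250 (57.5%). Intergenic bases of mm9, Ns left out, number 1505666630, and 3.38% of them are within 1 kb of a gene. Single-copy peaks were 16.2 times as frequent there as even placement over all these bases would give, and all peaks 7.69 times. These bases include multi-copy sequence, where no single-copy peak can lie, so the single-copy ratio compares unlike sets. The nearest gene was protein coding for 84.6% of single-copy and 63.4% of multi-copy peaks.

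The side of the gene changed with distance. Of all 728 peaks, 386 (53.0%, interval 49.4% to 56.6%) lay beyond the 3′ end of the nearest gene and 342 upstream of its start, where even placement gives 50.5% beyond the 3′ end. Among single-copy peaks within 1 kb, 105 of 160 lay upstream and 55 beyond the 3′ end (34.4%, interval 27.5% to 42.0%). From 1 to 10 kb the order turned, with 65 of 94 beyond the 3′ end (69.1%, interval 59.2% to 77.6%), and over 10 kb it was 20 of 39 (51.3%). Multi-copy peaks lay beyond the 3′ end in 50.6% from 1 to 10 kb and in 59.2% over 10 kb. The excess over even placement was greatest within 500 bases upstream, where 83 single-copy peaks lay at 33.3 times the share of intergenic bases. Within 500 bases beyond the 3′ end, 32 single-copy peaks lay at 12.3 times that share. Both ratios are over all intergenic bases, multi-copy sequence included. Of the single-copy peaks within 1 kb, 26 of 105 upstream and 14 of 55 beyond the 3′ end had at least 1 base in the gene, and 15 of the 105 had the start of a second gene within 5 kb on the other side. The members nearest to a gene lay 1 base past Lpar5 (pileup 128), 2 bases upstream of D11Wsu99e (pileup 25) and 2 bases past Kif13b (pileup 98).

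**Figure D3:**
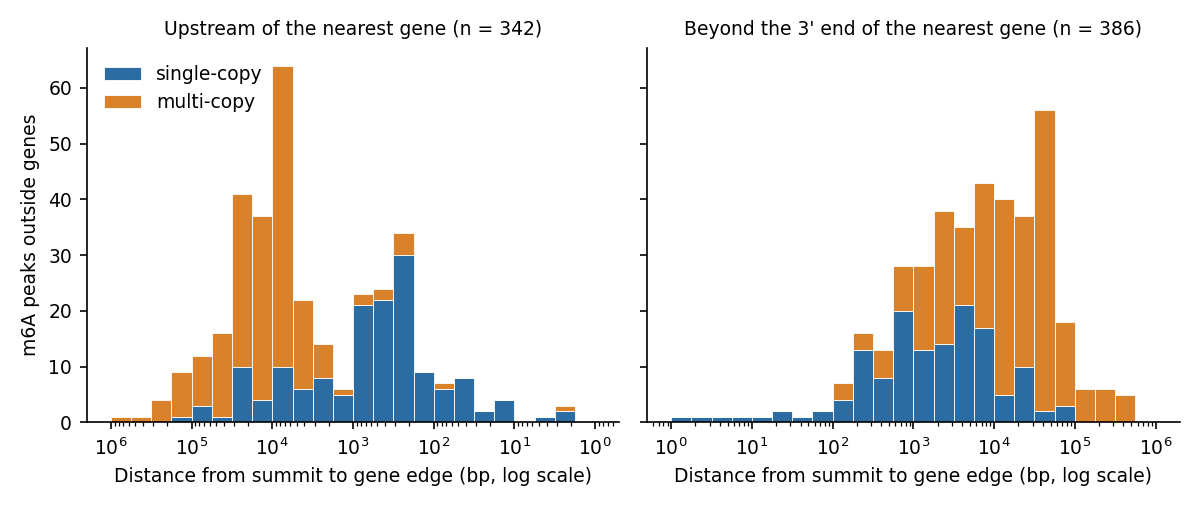
Distance from the summit to the nearest gene edge on a logarithmic axis, for the 342 peaks upstream of the gene (left) and the 386 beyond its 3′ end (right), stacked by copy number of the sequence at the summit. Single-copy peaks upstream gather within 1 kb, those beyond the 3′ end extend to 10 kb, and multi-copy peaks make up most of the rest.

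Beyond 3′ ends, single-copy peaks within 1 kb were the tallest of the single-copy classes, with a median pileup of 40, followed by 28.5 over 10 kb and 28 from 1 to 10 kb, and upstream the medians were 24, 21 and 19. The quartiles of neighbouring classes overlapped (23.5 to 67.5 beyond the 3′ end and 15 to 46 upstream, within 1 kb). Among the 10 tallest members were a peak 245 bases past Mmp14, the membrane-type metalloproteinase that cleaves collagen, with a pileup of 179 and a fold enrichment of 2.17, and one of pileup 156 and length 854 bases at 8158 bases past the small nucleolar RNA model SNORD93. Upstream, peaks 282 bases from BC005537 and 276 bases from Itpripl2 had pileups of 181 and 170. The tallest member of all, a multi-copy peak of 237 fragments, lay 1294 bases past the pseudogene model AY036118, and a single-copy peak of 205 fragments lay 233 bases past it with a fold enrichment of 1.66. Tlr8, a receptor for single-stranded RNA, had a peak of 1066 bases whose summit was 31 bases past its end (pileup 91), and Slc20a1, a phosphate transporter, one of 1138 bases with the summit 190 bases upstream (pileup 56).

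Pou2f2, which encodes an octamer-binding transcription factor, had 3 single-copy peaks beyond its 3′ end, at 238, 1508 and 2264 bases, with pileups of 122, 74 and 82 and fold enrichments of 6.81, 7.91 and 4.33. Their windows are shown with those of Mmp14, Lpar5 and Tlr8, as sequence found once in the genome beyond an annotated end and read on the gene's strand.
Pou2f2, 238 bases past the end (chr7:25877212-25877241, minus strand): cctccagcaggtcGGACctcatgccgcgga
Pou2f2, 1508 bases past the end (chr7:25875929-25875958, minus strand): cggatggaacgatGGACgcttctttctctt
Pou2f2, 2264 bases past the end (chr7:25875258-25875287, minus strand): ccccttccatcctGGACactccgaggagag
Mmp14 (chr14:55060380-55060409, plus strand): aggggagacagcaGGACctgaaggatgagc
Lpar5 (chr6:125032480-125032509, plus strand): cggctctctgagaGGACgcagtctaagtga
Tlr8 (chrX:163680537-163680566, minus strand): acagccctaaacaGGACaattataccagcc

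Later gene models were longer for many of the genes next to these peaks. The length of the nearest gene in vM1 was set against its length in RefSeq of GRCm38.p6, without using positions, and the gene was counted where it had grown by at least the distance of the peak, at whichever end. Among single-copy peaks beyond the 3′ end this held for 38 of 48 matched within 1 kb (79.2%, interval 65.7% to 88.3%) and for 29 of 54 from 1 to 10 kb (53.7%, interval 40.6% to 66.3%), where the same distances would be reached in 26.9% and 8.90% of the 11081 expressed protein-coding genes matched. Upstream it held for 48 of 92 within 1 kb (52.2%) and 7 of 22 from 1 to 10 kb (31.8%), against 26.7% and 9.30%. Over 10 kb it held for 1 of 11 single-copy peaks beyond the 3′ end and 6 of 18 upstream, against 1.85% and 1.94%. For multi-copy peaks beyond the 3′ end the shares were 62.5% within 1 kb (5 of 8), 30.6% from 1 to 10 kb and 6.02% over 10 kb. The same distances would be reached in 21.6%, 9.13% and 1.73% of expressed protein-coding genes. In the gene extents of the deposited expression table the single-copy shares were lower. Beyond the 3′ end they were 30.8% within 1 kb and 33.9% from 1 to 10 kb, against 9.06% and 3.55%. Upstream within 1 kb the share was 15.7% against 9.31%. Mmp14 was longer by 1204 bases and Tlr8 by 1571 bases in RefSeq, both more than the distance of their peaks. In the expression table neither was longer (differences of -1 and -2 bases). Among the other single-copy members named for pileup or length, AY036118 and Itpripl2 were longer in RefSeq, by 49549 and 5257 bases. BC005537 and Slc20a1 were not (differences of -1114 and -10 bases).

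Peaks outside genes were lower and narrower than peaks in genes but had a higher median fold enrichment. Median pileup was 22 (quartiles 14 and 40) against 63 (36 and 98), median length 271 bases against 304, and median fold enrichment 5.99 against 3.91. The p-values of all 10160 peaks were recovered to within 1% from the pileup and a background of (pileup + 1) / fold enrichment − 1, and this implied background had a median of 2.63 fragments outside genes and 15.4 in genes. Single-copy peaks had a median pileup of 25 and a fold enrichment of 5.32, and multi-copy peaks 20 and 6.47. At equal pileup the order depended on the height. The median fold enrichment was lower outside genes at the lowest and the highest pileups, with 5.80 against 5.97 between 1 and 10 fragments and 2.07 against 2.70 above 160 fragments, the latter over 6 peaks outside genes. It was higher outside genes between these, with 6.19 against 5.74 from 11 to 20 fragments, 6.30 against 4.92 from 21 to 40, 6.50 against 3.85 from 41 to 80 and 4.36 against 3.24 from 81 to 160. The highest value outside genes, 20.4, belonged to a multi-copy peak of pileup 27 found 14592 bases past BC024139, whose implied background of 0.374 was near the lowest in the list, 0.339.

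**Figure D4:**
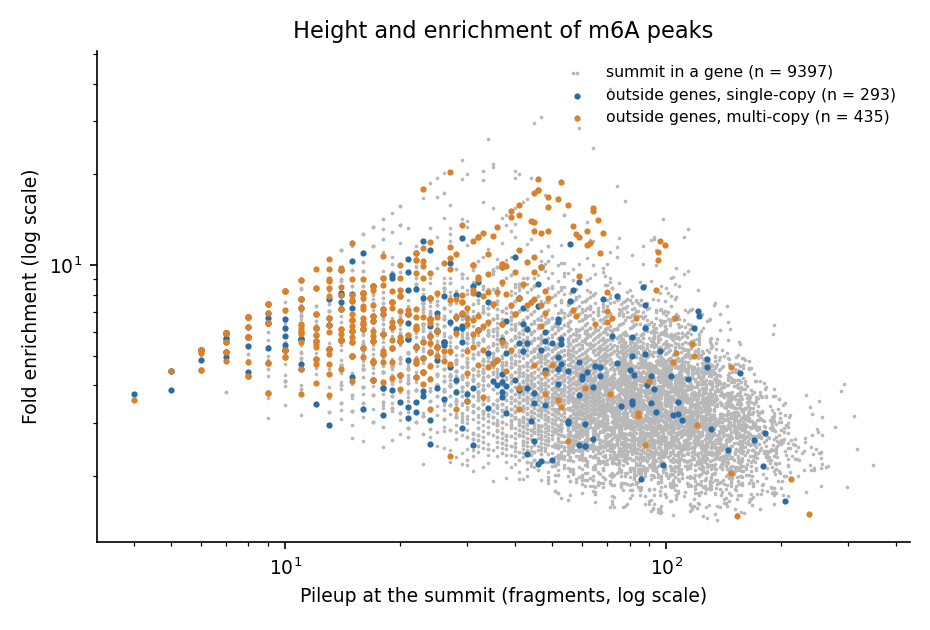
Fold enrichment against pileup at the summit, both on logarithmic axes, for 9397 peaks in genes (grey) and for 293 single-copy and 435 multi-copy peaks outside genes. Peaks outside genes lie to the left, at lower pileup, with a median of 22 against 63, and at a higher median fold enrichment, 5.99 against 3.91.

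GGAC was counted within 50 bases of each summit on the strand of the nearest gene, on the other strand, and in windows of the same width centred 200 bases outside both ends of the peak. In peaks within genes of 1 strand it was present on the gene's strand in 60.7% and on the other in 27.8%, with 28.4% in the flanks. Peaks outside genes had it on the strand of the nearest gene in 51.5% (interval 47.9% to 55.1%), on the other strand in 40.1% and in the flanks in 35.3%. Beyond 3′ ends, the shares on the gene's and the other strand among single-copy peaks were 56.4% and 38.2% within 1 kb and 44.6% and 30.8% from 1 to 10 kb, and among multi-copy peaks 63.3% against 21.5% from 1 to 10 kb, a class that holds most of the chromosome 2 cluster. Upstream within 1 kb the single-copy shares were alike, 48.6% on the gene's strand (interval 39.2% to 58.0%) and 50.5% on the other. Farther upstream the gene's strand had the higher share again, with 55.2% against 48.3% from 1 to 10 kb and 63.2% against 36.8% over 10 kb among single-copy peaks, the latter over 19 peaks, and 54.5% against 40.3% from 1 to 10 kb among multi-copy peaks. Multi-copy peaks over 10 kb beyond the 3′ end had 40.5% and 43.9%. Within single-copy classes by side and distance the intervals of the strands overlapped. Over all 140 single-copy peaks beyond the 3′ end they did not, by a narrow margin. The shares there were 51.4% on the gene's strand (interval 43.22% to 59.56%) and 35.0% on the other (interval 27.60% to 43.21%). Both strands were scored on the same peaks, so overlap of these intervals does not test a difference. Of the 140 peaks, 55 had GGAC on the gene's strand only and 32 on the other only.

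**Figure D5:**
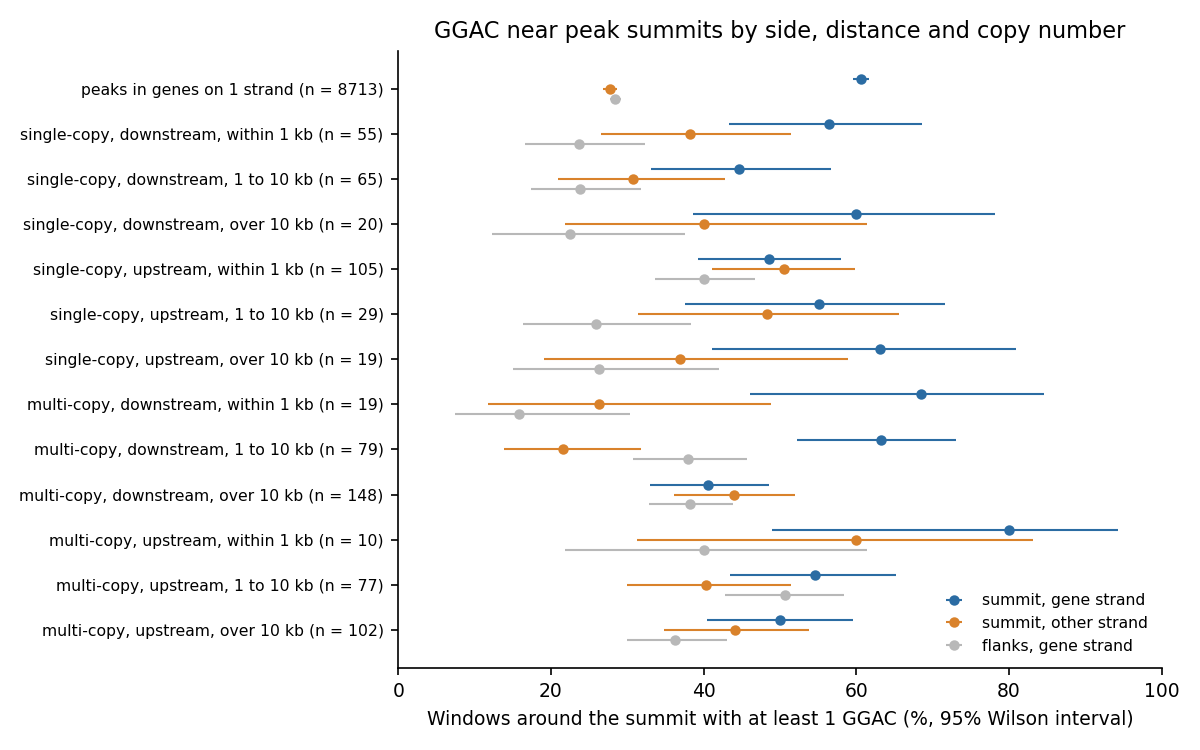
Share of windows with at least 1 GGAC and its 95% Wilson interval, at the summit on the gene's strand, at the summit on the other strand, and in the flanks on the gene's strand, by copy number, side and distance. The strands lie far apart for peaks in genes (60.7% and 27.8%) and for multi-copy peaks 1 to 10 kb beyond the 3′ end (63.3% and 21.5%), and together for single-copy peaks within 1 kb upstream (48.6% and 50.5%).

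The genes next to single-copy peaks were expressed. Of the 477 nearest genes, 426 were in the expression table, and 289 of these (67.8%, interval 63.3% to 72.1%) had a mean of at least 1 CPM in the control libraries, against 38.8% of the 32799 annotated genes in the table. For single-copy peaks it was 83.0%, with 95 of 100 for those within 1 kb upstream (median 36.1 CPM) and 87.5% for those within 1 kb beyond the 3′ end (median 14.8 CPM). For multi-copy peaks it was 50.3%, falling to 37.7% for those over 10 kb beyond a 3′ end. Of the expressed nearest genes of single-copy peaks, 61.5% also had a peak with its summit inside, against 45.3% of all expressed genes.

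Genes whose 3′ end had a member within 10 kb past it were compared between knockout and control in the fit over all genes. Of 270 such genes, 173 were tested and 48 passed an adjusted p of 0.05 (27.7%, where 30.5% of all 15327 genes tested did), 29 higher in knockout (16.8%, against 13.7% of all genes) and 19 lower, where 16.8% of all genes were. Their median log2 fold change was 0.09 (quartiles -0.13 and 0.35), beside 0.00 over all genes. The number called rested on the libraries used: it was 105 without control replicate 1, 84 without control replicate 2, 15 without knockout replicate 1 and 17 without knockout replicate 2, while the share of all genes moved from 55.8% to 11.8% in the same fits. The control libraries differed from each other far more than counting noise (a mean chi-square of 32.6 per gene, against 1.82 for the knockout pair).

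Several calls on the genes below were lost when 1 knockout library was left out: those of Ttc9, Pla2g2e, Disc1, Iqcd, Man2a2 and H6pd, with adjusted p-values from edgeR of 0.116, 0.122, 0.135, 0.199, 0.326 and 0.191 without knockout replicate 1. Nr4a3, an orphan nuclear receptor of the immediate early genes, fell from 152 and 153 CPM in control to 0.247 and 0.470 CPM in knockout (log2 fold change -8.66 ± 0.15 SE, adjusted p = 1.61e-06). Its member was a multi-copy peak of pileup 8, 9567 bases past the end. Each SE here and below is the absolute log2 fold change divided by the square root of the F statistic of the edgeR test. It was not fitted separately and can be too small at low counts, such as those of Nr4a3 in knockout. The falls and rises named here were chosen among genes whose groups did not overlap, so that separation adds no evidence. Coagulation factor V (F5) fell from 31.7 and 28.4 CPM to 4.12 and 2.95 CPM (log2 fold change -3.11 ± 0.16 SE, adjusted p = 6.84e-05). The H2A gene that vM1 names Hist2h2aa2 and the expression table Hist2h2aa1 (ENSMUSG00000064220) has a near-identical neighbour, so its counts are uncertain, and it fell from 1.89 and 2.76 CPM to 0.536 and 0.0627 CPM (-3.06 ± 0.66, adjusted p = 0.0168), and Ttc9 from 1.18 and 1.13 CPM to 0.165 and 0.345 CPM (-2.12 ± 0.44, adjusted p = 0.0145). Pla2g2e, a secreted phospholipase, had 17 and 13 counts in control and 0 and 2 in knockout (adjusted p = 0.0188).

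Among the rises, Pou2f2 went from 26.7 and 27.0 CPM to 50.9 and 51.1 CPM (log2 fold change 0.92 ± 0.07 SE, adjusted p = 0.00028) and Pdlim2, an adaptor with PDZ and LIM domains, from 32.1 and 28.7 CPM to 66.6 and 65.0 CPM (1.11 ± 0.08, adjusted p = 0.000228). Lpar5, a receptor for lysophosphatidic acid, rose from 4.43 and 4.03 CPM to 9.03 and 7.75 CPM (0.98 ± 0.15, adjusted p = 0.00503). Disc1, a scaffold protein, rose from 2.75 and 1.66 CPM to 5.44 and 4.30 CPM (1.12 ± 0.28, adjusted p = 0.0261), and Iqcd from 0.236 and 0.141 CPM to 0.536 and 0.659 CPM (1.63 ± 0.49, adjusted p = 0.0479). These genes, too, were chosen among those whose groups did not overlap. Their members were single-copy peaks, at 238, 909, 1, 153 and 5710 bases past the end, the last of which was nearer to another gene.

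The 5 most abundant genes of the list had log2 fold changes between -0.31 and 0.28. Rpl14, of the large ribosomal subunit, stood at 466 and 503 CPM in control and 421 and 437 CPM in knockout (log2 fold change -0.17 ± 0.06 SE, adjusted p = 0.0891), and Cox6a1, of cytochrome c oxidase, at 416 and 485 CPM and 374 and 379 CPM (-0.26 ± 0.08, adjusted p = 0.0591). The members of both, 6217 bases past Rpl14 and 4422 bases past Cox6a1, were nearer to another gene. Mmp14 stood at 302 and 241 CPM and 319 and 340 CPM (0.28 ± 0.11, adjusted p = 0.102). Man2a2, a Golgi mannosidase, passed the test at 285 and 281 CPM against 332 and 332 CPM (0.23 ± 0.06, adjusted p = 0.0243), and H6pd, a hexose-6-phosphate dehydrogenase, at 230 and 250 CPM against 195 and 192 CPM (-0.31 ± 0.07, adjusted p = 0.015). Adjusted p-values came from the quasi-likelihood test of edgeR and were adjusted by the Benjamini-Hochberg method over every gene tested.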

How the data were processed

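MeRIP-Seq (2 immunoprecipitates, 2 inputs) and RNA-seq (2 control, 2 knockout libraries) were analysed from the deposited files. The submitters' processing notes name HISAT2 2.0.4, TopHat and MACS2 and the builds mm9 and mm10. The authors deposited 1 peak list in MACS2 layout that gives each peak's pileup signal and its enrichment, a ratio to background. The headers of the deposited −log10 p and −log10 q score columns were lost, and both were read by their place in that layout. They also deposited estimated counts per gene and values headed FPKM with equal totals in every library, so that the deposited values are TPM. Entries without a gene name (0.110% to 0.125% of counts) were left out, and estimated counts were rounded. No per-library column was left unused.

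Peak positions were taken as mm9: 92.8% of 10125 placed summits lay in vM1 genes, against 52.4% in the GRCm38 gene extents of the expression table, and no peak passed a chromosome end. A member was a peak with its summit in no vM1 gene. Peaks on unplaced sequence, 35 in all, were left out. The side is that of the nearest gene edge. Words of 31 bases were counted on both strands, peaks sharing a word formed a family, and the word counts and the nearest-gene search were tested on simulated data. Loci chained members within 10 kb.

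Counts were tested with edgeR 4.0.16 (quasi-likelihood, two-sided, filterByExpr and TMM, without a replicate block) and adjusted by Benjamini-Hochberg over 15327 genes. The fit was also tested on simulated data. DESeq2 1.42.0 and limma 3.58.1 were alternatives. RefSeq tables of GRCm38.p6 were used for names and lengths only, by symbol. Windows were read from mm9 with pysam 0.24.0.

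Named members were the 10 highest by fold enrichment, the 10 by pileup, the 5 longest, the 5 farthest from a gene and those past the 5 genes with most members (ties broken by summed pileup). Named genes were the 5 largest rises and 5 largest falls among those called whose groups did not overlap and whose libraries in 1 group all had 10 or more counts, and the 5 most abundant. Other members were named after their values were seen. The members and lists were chosen with earlier results of these data known.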

Additional observations from a re-analysis of the deposited data

How the results depend on the processing

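The choice that moved most values was copy number, added after seeing the data. With single-copy peaks only, 293 peaks remained and 47.8% lay beyond the 3′ end. The median distance was 835 bases, the median pileup 25 and fold enrichment 5.32, and 83.0% of nearest genes reached 1 CPM. Of 125 genes tested beside them, 12 were lower in knockout (9.6%, against 16.8% of all genes) and 26 higher (20.8%, against 13.7%). With the nearest protein-coding gene the median distance was 8868 bases and GGAC on the gene's strand was in 47.8%. With the nearest gene of at least 1 CPM these were 15161 bases and 46.2%, 47.0% lay beyond the 3′ end, and the strands differed by 0.963 percentage points in place of 11.4. A −log10 q of at least 5 gave a median fold enrichment of 6.29. GGAC was found in 78.8% in the whole peak and 69.9% within 100 bases, and the wider consensus DRACH in 87.4%. At 0.1 TPM 77.7% of nearest genes counted as expressed. Merging changed nothing, since no peaks overlapped or touched, and leaving out peaks with a base in a gene kept each value within its interval.

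In the RNA-seq comparison without the filter on low counts, 46 of 199 genes were higher (23.1%), where 2724 of 23515 were over all genes. limma called 29 (15.6%, against 14.1% of all genes), of which 8 were lower (4.30% of those tested). Over all genes limma called 1162 of 18028 lower. The median log2 fold change under limma was 0.19, beside 0.09 over all genes. Over fits that left out 1 library, 15 to 105 genes were called, 7 to 73 higher and 8 to 32 lower, with median log2 fold changes of 0.0598 to 0.164. The share called higher exceeded that of all genes when a control library was left out, but not when a knockout library was. The excess of higher calls thus depended on the library left out. The share called lower was below that of all genes in each of these fits. The median log2 fold change over all genes lay between -0.0103 and 0.00100 in them. Same-numbered libraries did not deviate together (correlation 0.0264), so they share only a number. With the replicate block 53 genes were called (30.6%, against 31.8% of all genes), 33 higher (19.1%) and 20 lower (11.6%). Over all 15327 genes, 2253 were higher and 2628 lower with the block. No named gene changed direction in the alternatives run. Leaving out knockout replicate 1 took Disc1 (adjusted p = 0.135), H6pd (0.191), Man2a2 (0.326), Ttc9 (0.116), Pla2g2e (0.122) and Iqcd (0.199) past 0.05, and leaving out knockout replicate 2 H6pd (0.216), Man2a2 (0.32) and Iqcd (0.337). Iqcd also missed it without control replicate 2 (0.12), and under DESeq2 (0.271), the block (0.0582) and no filter (0.0524). Under limma, Disc1 (0.0708), Hist2h2aa2 (0.0857), Iqcd (0.083), Pla2g2e (0.0687) and Ttc9 (0.0561) missed it, and under DESeq2 Pla2g2e (0.0628). With 1 control library left out, only the knockout pair gives a spread between libraries, and that pair differed far less than the control pair. Passes of Mmp14, Rpl14 and Cox6a1 in those fits therefore show little. Cox6a1 passed 0.05 with the replicate block (adjusted p = 0.0439), under DESeq2 (0.0436) and without the filter (0.00238), and Mmp14 without the filter (0.000917). The depth of the MeRIP-Seq samples is unknown, which limits every statement on low peaks.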

Other observations

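Beyond the element, the array and the cluster, the multi-copy peaks included families of higher copy number and low pileup. The second largest family, 3 peaks of which lay in the chromosome 2 cluster, held 33 peaks on 13 chromosomes, with a median of 240 copies of its words in the genome and a median pileup of 8. It supplied 4 of the 5 peaks farthest from any gene, 516674 bases past Gm15442, 515918 bases past U7, 488246 bases upstream of Gm8526 and 438862 bases past Cdh10, with pileups of 16, 11, 8 and 8. The farthest of all lay 610274 bases upstream of Gm4487, in a family of 8 peaks with a median of 41 copies, and had a pileup of 16. Another family of 24 peaks on 16 chromosomes had a median of 31 copies and a median pileup of 13.5.

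By chromosome, peaks outside genes were most numerous on chromosomes 2, 6 and 7, with 68, 64 and 58. Of these, 60, 49 and 25 were multi-copy. The tallest members upstream of a gene or far from one also included multi-copy peaks of low fold enrichment: 547 bases upstream of Zc3h10 (pileup 212, fold enrichment 1.97), 284263 bases upstream of Pxmp3 (153 and 1.47) and 309 bases upstream of Gm10925 (148 and 2.05). The peak 215 bases past Hist2h2aa2 had a pileup of 148 and a fold enrichment of 4.60. At 53 of the 728 peaks (7.28%) the implied background was at the lowest value of the list, against 188 of 9397 peaks in genes (2.00%), so the fold enrichment of these peaks is set by that floor and by the pileup alone. One of them was the peak 24053 bases past Dapk2, with a pileup of 23 and a fold enrichment of 17.9.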
